A study of Arabidopsis thaliana with 64 samples.

Results

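Transcripts of 10 salicylic acid genes were followed in Arabidopsis thaliana leaves that had been starved of fixed carbon or dehydrated. The 10 were taken by gene identifier from the 28775 genes of the table: ICS1 (AT1G74710), EDS5 (AT4G39030), PBS3 (AT5G13320), ALD1 (AT2G13810), PR1 (AT2G14610), PR2 (AT3G57260), PR5 (AT1G75040), NIMIN1 (AT1G02450), NIMIN2 (AT3G25882) and GRX480 (AT1G28480). All 10 passed the filter on low values and were tested.

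Leaf RNA was sequenced from 5 genotypes, atg7-2, DSK2 RNAi, bes1-D, bri1-301 and WT. Every plant was 4 weeks old and had grown in days with 16 hours of light. Each genotype had 2 libraries after 5 days of fixed-carbon starvation, 3 after 4 hours of dehydration and 3 controls, which makes 40 libraries in 15 groups. ATG7 activates ATG8 for autophagy, and atg7-2 is a mutant of it. DSK2 RNAi is a knockdown of the ubiquitin receptors DSK2A and DSK2B. The brassinosteroid transcription factor BES1 has a gain-of-function allele in bes1-D, and BRI1 is the brassinosteroid receptor with a weak allele in bri1-301. The sources used here do not give the parent strain, the number of lines behind each genotype or any pooling of plants. The labels also do not say whether replicate libraries came from separate plants, so each p-value reflects the spread between libraries, which may be partly technical. Another 24 libraries, of 4 genotypes labelled wrky, were not analysed here.

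Salicylic acid is a plant defence hormone that leaves make mainly in response to pathogens and also accumulate as they age. In Arabidopsis most of it comes from chorismate in the chloroplast. ICS1 makes isochorismate there, EDS5 exports it, and PBS3 joins it to glutamate to give a product that breaks down to salicylic acid. ALD1 makes a precursor of pipecolic acid, the companion signal of systemic immunity. It is grouped here with ICS1, EDS5 and PBS3 as a synthesis gene, though its product belongs to the pipecolic acid branch. The hormone acts through NPR1, a coactivator that works with TGA transcription factors and switches on the pathogenesis-related genes PR1, PR2 (a beta-1,3-glucanase) and PR5 (a thaumatin-like protein). NIMIN1 and NIMIN2 are small proteins that bind NPR1, and GRX480 is a glutaredoxin that binds TGA factors.

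The promoters of 4 response genes are shown because TGA factors bind TGACG elements and WRKY factors bind W-boxes with the core TTGAC. Each line gives, 5′ to 3′ on the gene's strand, 250 bases before the annotated gene start and 50 bases from it on. They were read from the TAIR10.1 assembly with RefSeq's annotation. The submitters' processing notes name TAIR10, and the table itself has no coordinates. Capitals mark TGACG or TTGAC on either strand, so that CGTCA and GTCAA are matches on the opposite strand. PR2 lies at chr3:21189918-21190217 on the reverse strand, PR5 at chr1:28177420-28177719 (forward), NIMIN2 at chr3:9470990-9471289 (reverse) and GRX480 at chr1:10014207-10014506 (reverse).
PR2: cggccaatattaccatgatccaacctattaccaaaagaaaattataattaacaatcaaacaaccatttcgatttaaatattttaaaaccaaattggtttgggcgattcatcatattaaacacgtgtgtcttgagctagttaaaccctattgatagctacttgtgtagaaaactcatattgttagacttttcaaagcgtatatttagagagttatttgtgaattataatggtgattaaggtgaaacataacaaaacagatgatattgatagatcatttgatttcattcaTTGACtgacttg
PR5: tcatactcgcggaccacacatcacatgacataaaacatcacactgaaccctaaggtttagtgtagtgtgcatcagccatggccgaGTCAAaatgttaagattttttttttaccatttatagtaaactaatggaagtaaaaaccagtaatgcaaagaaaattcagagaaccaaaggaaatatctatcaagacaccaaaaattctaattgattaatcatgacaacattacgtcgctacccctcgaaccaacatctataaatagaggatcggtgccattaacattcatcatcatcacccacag
NIMIN2: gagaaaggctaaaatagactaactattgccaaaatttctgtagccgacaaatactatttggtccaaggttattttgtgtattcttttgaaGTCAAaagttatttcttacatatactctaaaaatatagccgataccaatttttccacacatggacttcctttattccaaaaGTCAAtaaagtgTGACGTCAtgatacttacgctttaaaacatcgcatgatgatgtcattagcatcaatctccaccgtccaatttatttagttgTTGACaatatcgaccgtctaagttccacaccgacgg
GRX480: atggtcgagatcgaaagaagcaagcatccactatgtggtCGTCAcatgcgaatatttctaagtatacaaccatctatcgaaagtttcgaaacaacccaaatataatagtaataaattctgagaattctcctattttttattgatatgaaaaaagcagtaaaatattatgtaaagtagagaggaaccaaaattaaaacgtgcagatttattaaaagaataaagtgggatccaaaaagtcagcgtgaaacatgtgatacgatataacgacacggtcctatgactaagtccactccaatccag
NIMIN2 holds 2 matches to TGACG that overlap each other on opposite strands, and 3 to TTGAC, of which 1 lies after the gene start. GRX480 holds 1 match to TGACG. PR2 and PR5 hold 1 match to TTGAC each, and that of PR2 lies after the gene start. In the same window TGACG occurs in 23.1% and TTGAC in 50.5% of 27443 promoters, and in 2 and 4 of the 9 promoters searched here. EDS5 has 2 matches to TTGAC, and ICS1, PBS3, ALD1 and NIMIN1 have neither string. A match describes these letters only and does not show that a factor binds there.

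Values are reads scaled to library size, named RPM by the authors, with 26.3 to 29.8 reads behind each RPM. A count of 3 reads corresponds to 0.101 to 0.114 RPM depending on the library, which covers counting error only. A change is a difference of mean log2(RPM + 0.5), a scale that shrinks the changes of weakly expressed genes. Its standard error (SE) and two-sided p come from limma fitted to all 40 libraries and 19824 genes. A gene was called at a Benjamini-Hochberg adjusted p under 0.05, adjusted over all tested genes within each comparison. Where no tool is named, a call is one of this limma fit, and calls by edgeR or DESeq2 are on whole reads recovered from the RPM. In DSK2 RNAi, DSK2A was low in all 3 treatments (9.85 against 56.4 RPM in WT after starvation). DSK2B was 14.8 against 133 RPM in controls but 155 against 215 RPM in starved leaves, so the label was borne out there by DSK2A only. Whole-gene values cannot check the other 3 mutants. By the slope of expression on transcript length 6 libraries stood apart, namely replicate 3 of atg7-2 control, bes1-D control, bes1-D dehydration and WT dehydration, and both bri1-301 starvation libraries. In a group of 2, both libraries lie equally far from the group median, so the bri1-301 libraries were flagged together. Their slopes were -0.14 and 0.74, which shows that they differ from each other and not which of them is unusual. The 6 photosynthetic leaf markers summed to 942 to 2746 RPM in starved libraries and 31880 to 66680 RPM in controls, while the 7 floral markers summed to 11.2 to 39.6 and 1.45 to 17.3 RPM. The 3 root markers summed to 10.05 to 63.5 RPM in starved libraries and 58.1 to 196.5 RPM in controls, since PYK10 and SCR were expressed and fell with starvation in each genotype, while RHD6 was at 0 throughout. The starved libraries also have sample numbers that follow those of all others, so starvation and any separate handling cannot be told apart. Leaves were sequenced in bulk, so fewer cells of a type and less RNA per cell cannot be told apart either.

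In WT control leaves the genes lay far apart in level per kilobase of transcript. PR1 averaged 134 ± 119, PR2 119 ± 47.1 and PR5 43.9 ± 21.1 RPM per kb (SD, n = 3). ICS1 averaged 5.61 ± 1.40 and EDS5 4.53 ± 0.229 RPM per kb. GRX480 (2.97 ± 0.285), PBS3 (2.95 ± 0.823), NIMIN2 (2.61 ± 0.785), ALD1 (2.07 ± 1.57) and NIMIN1 (1.20 ± 0.826 RPM per kb) came last. PR1 and PR2 did not differ beyond their spread, nor did ICS1 and EDS5, nor neighbours among the last 5. Replicates of PR1 spread widely, with 229, 118 and 14.4 RPM in the 3 WT controls.

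**Figure D1:**
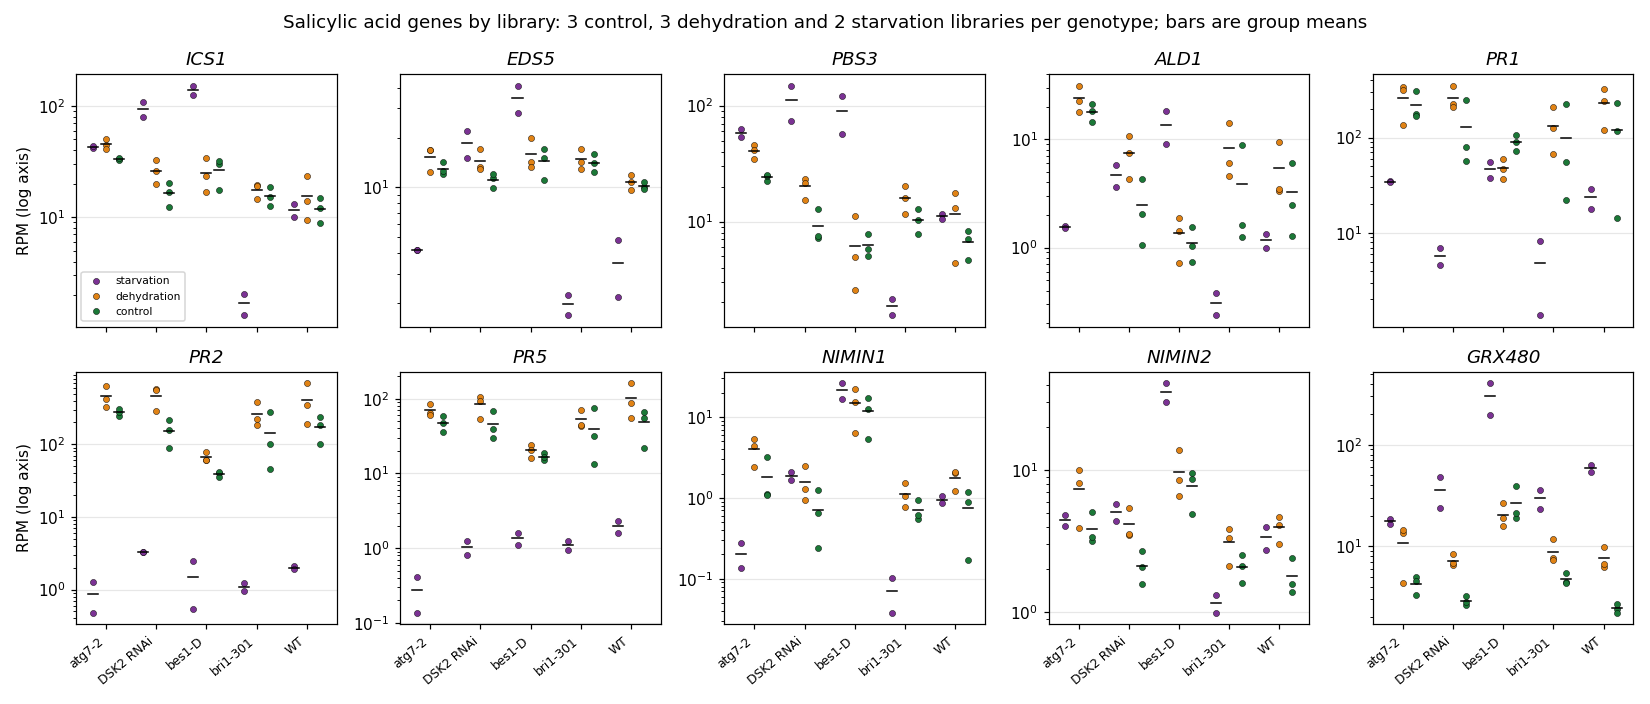
RPM of each gene on a log axis, one point per library, by genotype and treatment; bars are group means. PR2 and PR5 sit lowest in starved leaves of every genotype, while ICS1, PBS3 and ALD1 in starved leaves are high in bes1-D and low in bri1-301.

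The widest differences came with starvation, and they split the list. The pathogenesis-related genes PR2 and PR5 fell in all 5 genotypes and GRX480 rose in all 5, whereas the synthesis genes rose, fell or did not pass depending on the genotype. Over the 50 pairs of gene and genotype 15 rose and 21 fell. The number of genes that rose and fell was 2 and 6 in atg7-2, 5 and 3 in DSK2 RNAi, 6 and 2 in bes1-D, 1 and 7 in bri1-301, and 1 and 3 in WT. Starvation moved much of the transcriptome, so these counts stand against a high background. Of all tested genes 22.3% rose and 47.2% fell in atg7-2, 24.9% and 36% in DSK2 RNAi, 26.1% and 39.9% in bes1-D, 21.8% and 32.3% in bri1-301, and 24.7% and 35.7% in WT. Starved and control libraries did not overlap, with starvation higher or lower, in 30.6% and 55.5% of all genes in atg7-2, 32.6% and 42.4% in DSK2 RNAi, 26.4% and 39.9% in bes1-D, 25% and 35.4% in bri1-301, and 32.3% and 46.8% in WT. The median change of the 10 genes was -1.56 in atg7-2, 0.99 in DSK2 RNAi, 1.70 in bes1-D, -2.37 in bri1-301 and -0.49 in WT. The medians of all genes were -0.52, -0.15, -0.34, -0.16 and -0.26 in the same order. Scaling by median of ratios shifted the medians of all genes by 0.49, 0.14, 0.29, 0.15 and 0.21. It moved the share of higher genes among all calls to 49.2%, against 32% unscaled, in atg7-2 and to 49.7%, against 39.6%, in bes1-D. No called change of the 10 genes turned its direction under it.

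Transcripts of ICS1, the first enzyme of the pathway, rose in starved DSK2 RNAi and bes1-D leaves and fell in bri1-301. The 2 starved libraries held 79.5 and 108 RPM in DSK2 RNAi, against 12.3, 17.0 and 20.3 RPM in its controls. In bes1-D they held 152 and 125 RPM, against 30.4, 31.7 and 17.7 RPM in controls. In bri1-301 they held 1.32 and 2.05 RPM, against 12.6, 15.1 and 18.7 RPM in controls. No starved library overlapped the controls of its genotype in these 3 lines. The changes were 2.48 (SE 0.31, adjusted p = 4.71e-08) in DSK2 RNAi, 2.40 (SE 0.31, adjusted p = 7.42e-08) in bes1-D and -2.87 (SE 0.31, adjusted p = 3.79e-09) in bri1-301. In WT, starved leaves had 13.1 and 10.1 RPM, within the 8.88 to 14.8 RPM of the controls (log2 change -0.02, adjusted p = 0.963). In atg7-2, 41.7 and 43.6 RPM in starved leaves lay above the 32.9 to 33.8 RPM of controls without passing the limma test (0.35, adjusted p = 0.323). ICS1 was called higher there by 0.90 after median-of-ratios scaling (adjusted p = 0.0037), by 0.79 in edgeR (adjusted p = 0.0107) and by 0.91 in DESeq2 (adjusted p = 0.00201), and at the same 0.35 with only the compared libraries (adjusted p = 0.0333).

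PBS3, the enzyme that conjugates isochorismate to glutamate, followed ICS1 and also rose in atg7-2. Starved DSK2 RNAi libraries had 74.4 and 149 RPM, against 7.19, 7.54 and 12.9 RPM in controls (change 3.49, SE 0.45, adjusted p = 6.19e-08). Starved bes1-D libraries had 121 and 56.9 RPM, against 5.78, 7.83 and 5.04 RPM in controls (3.66, SE 0.45, adjusted p = 2.26e-08). Starved atg7-2 libraries had 53.5 and 63.0 RPM, against 22.6, 24.5 and 25.1 RPM in controls (1.26, SE 0.45, adjusted p = 0.0138). The groups did not overlap in these 3 lines. Without atg7-2 starvation replicate 2 the change in that mutant was 1.14 and not called (adjusted p = 0.0876). In bri1-301 PBS3 fell, at 1.55 and 2.17 RPM in starved leaves against 7.76, 12.7 and 10.3 RPM in controls (-2.18, SE 0.45, adjusted p = 0.000122). In WT the 11.7 and 10.6 RPM of starved leaves lay above the 4.65 to 8.31 RPM of controls, with a change of 0.73 that limma did not call (adjusted p = 0.157). It was called by edgeR (0.95, adjusted p = 0.0391) and DESeq2 (0.95, adjusted p = 0.0295), and also after median-of-ratios scaling, with only the compared libraries or with the length trend removed (0.73 to 0.94, adjusted p = 0.0343 to 0.0447).

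EDS5, the chloroplast exporter, is expressed within a narrow range in controls, 9.80 to 17.0 RPM over all genotypes. It fell in starved leaves of atg7-2 (4.19 and 4.17 RPM), bri1-301 (1.69 and 2.24 RPM) and WT (4.78 and 2.17 RPM). The log2 changes were -1.51 (SE 0.24, adjusted p = 2.42e-06) in atg7-2, -2.57 (SE 0.24, adjusted p = 2.35e-10) in bri1-301 and -1.51 (SE 0.24, adjusted p = 3.42e-06) in WT. That in atg7-2 was -0.999 after median-of-ratios scaling and still called. It rose in starved bes1-D, to 41.2 and 28.0 RPM against 15.1, 17.0 and 11.1 RPM in controls (1.23, SE 0.24, adjusted p = 5.63e-05). In starved DSK2 RNAi it reached 15.0 and 22.0 RPM, against 9.84, 11.3 and 12.0 RPM (0.70, SE 0.24, adjusted p = 0.014). That call rested on replicate 2, without which the change was 0.43 (adjusted p = 0.242).

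ALD1, of the pipecolic acid branch, rose in starved bes1-D and fell in starved atg7-2 and bri1-301. Starved bes1-D had 18.4 and 9.01 RPM, against 1.54, 1.03 and 0.74 RPM in controls (3.09, SE 0.58, adjusted p = 3.13e-05). Starved atg7-2 had 1.57 and 1.50 RPM, against 14.5, 18.3 and 21.3 RPM (-3.17, SE 0.58, adjusted p = 1.94e-05). Starved bri1-301 had 0.24 and 0.38 RPM, against 1.25, 1.63 and 8.84 RPM (-2.02, SE 0.58, adjusted p = 0.00415). In each of the 3 lines the starved libraries lay outside the range of controls. Control replicate 3 of bri1-301 was far above the other 2, and without it the change was -1.26 (adjusted p = 0.0579). With only the compared libraries it was not called either (adjusted p = 0.0769), while edgeR and DESeq2 gave -3.58 and -3.60 and called it. Starved DSK2 RNAi (3.64 and 5.77 RPM) and WT (1.35 and 1.00 RPM) did not pass, with changes of 0.93 and -0.96 that were 0.54 and -0.46 without control replicate 1 of each genotype. The bri1-301 starved libraries, on which the lowest values of all 4 synthesis genes rest, are both among those that stand apart, so no value without them can be given.

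PR2 and PR5 were nearly lost from starved leaves. PR2 was 1.26 and 0.48 RPM in starved atg7-2, against 244, 279 and 308 RPM in its controls. It was 2.09 and 1.90 RPM in starved WT, against 239, 186 and 101 RPM in controls. Over all genotypes the 10 starved libraries held 0.48 to 3.34 RPM, below the lowest control at 35.4 RPM. The changes of PR2 were -7.72 (SE 0.54, adjusted p = 1.18e-13) in atg7-2, -5.24 in DSK2 RNAi, -4.50 in bes1-D, -6.11 in bri1-301 and -6.06 (SE 0.54, adjusted p = 5.18e-11) in WT. That in bes1-D was -3.75 without starvation replicate 2 and -5.25 without replicate 1. PR5 was 0.41 and 0.14 RPM in starved atg7-2, the lower close to the value of 3 reads, against 35.5, 47.5 and 59.5 RPM in controls. It was 2.29 and 1.62 RPM in starved WT, against 66.4, 55.6 and 22.2 RPM in controls. The changes of PR5 were -5.95 (SE 0.49, adjusted p = 4.77e-12) in atg7-2, -4.85 in DSK2 RNAi, -3.23 in bes1-D, -4.33 in bri1-301 and -4.18 (SE 0.49, adjusted p = 1.35e-08) in WT. The leaf photosynthetic markers fell in the same libraries, 6 of 6 in each genotype, with median changes from -5.27 in atg7-2 to -3.49 in bri1-301, and their part in the fall of the PR genes was not tested.

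PR1, a marker of systemic acquired resistance, was more variable. It was 34.7 and 34.3 RPM in starved atg7-2, against 178, 168 and 305 RPM in controls (-2.58, SE 0.82, adjusted p = 0.0066). It was 6.98 and 4.56 RPM in starved DSK2 RNAi, against 248, 57.1 and 79.5 RPM (-4.09, SE 0.82, adjusted p = 8.12e-05). It was 8.30 and 1.37 RPM in starved bri1-301, against 22.0, 55.4 and 223 RPM (-4.01, SE 0.82, adjusted p = 0.000124). Each of these 3 falls kept the groups apart. In starved bes1-D (55.9 and 37.3 RPM) and WT (18.0 and 29.1 RPM) the changes of -0.94 and -1.66 were not called in limma (adjusted p = 0.317 and 0.0816), and in WT the groups overlapped since control replicate 3 had 14.4 RPM. In WT, PR1 was called lower by edgeR (-2.17, adjusted p = 0.0316), by DESeq2 (-2.16, adjusted p = 0.0178) and with the length trend removed (adjusted p = 0.0322). The WT change was -2.82 without control replicate 3 (adjusted p = 0.00211) and -0.85 without control replicate 1. With only the compared libraries that in bes1-D was called (adjusted p = 0.0249). The change of PR1 in DSK2 RNAi was -3.46 without control replicate 1, and that in bri1-301 was -2.89 without starvation replicate 2 and -5.13 without replicate 1.

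GRX480, the TGA-binding glutaredoxin, moved against the PR genes and rose in each genotype. It was 198 and 403 RPM in starved bes1-D, against 19.2, 21.4 and 38.8 RPM in controls (3.46, SE 0.37, adjusted p = 2.16e-09). It was 63.4 and 54.0 RPM in starved WT, against 2.44, 2.22 and 2.68 RPM in controls (4.33, SE 0.37, adjusted p = 2.83e-11). It was 16.6 and 18.6 RPM in starved atg7-2, against 5.01, 3.33 and 4.52 RPM (1.93, SE 0.37, adjusted p = 3.87e-05). Starved and control libraries did not overlap in any genotype. Starved DSK2 RNAi had 47.9 and 23.8 RPM (3.34, adjusted p = 5.35e-09) and starved bri1-301 36.1 and 23.1 RPM (2.50, adjusted p = 1.37e-06). By point estimate the change was largest in WT and smallest in atg7-2, while the level was highest in bes1-D. Of the mutants, only atg7-2 differed from WT in this change by a limma call.

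Few changes of the NPR1-binding NIMIN genes were called in limma, on a scale that shrinks those of weakly expressed genes. NIMIN2 rose in starved bes1-D, with 30.4 and 41.0 RPM against 4.89, 9.60 and 8.60 RPM in controls (2.18, SE 0.34, adjusted p = 1.83e-06). In starved DSK2 RNAi it had 5.73 and 4.39 RPM, against 1.57, 2.68 and 2.07 RPM (1.11, SE 0.34, adjusted p = 0.0058), and without starvation replicate 1 the change was 0.93 and not called (adjusted p = 0.0735). NIMIN1 fell in starved atg7-2, with 0.14 and 0.27 RPM against 1.12, 1.09 and 3.23 RPM (-1.60, SE 0.48, adjusted p = 0.00386). Both atg7-2 values rest on few reads, and the change was -2.70 in edgeR and -2.60 in DESeq2. In starved bri1-301 NIMIN1 was 0.10 and 0.04 RPM, at or under the value of 3 reads, and no fold is given for it. It was not called there in limma (adjusted p = 0.0591) but was called lower in edgeR and DESeq2 (adjusted p = 0.0185 and 0.00269). The remaining changes of NIMIN1 and NIMIN2 were not called in limma, and 3 of them lay near the threshold. NIMIN1 in DSK2 RNAi was 1.05 (adjusted p = 0.0559), and edgeR (1.51, adjusted p = 0.045) and DESeq2 (1.56, adjusted p = 0.0276) called it. NIMIN1 in bes1-D was 0.96 (adjusted p = 0.075) and was called after median-of-ratios scaling (1.29, adjusted p = 0.0223) or without bes1-D control replicate 2 (1.31, adjusted p = 0.027). NIMIN2 in WT was 0.77 (adjusted p = 0.0515), and edgeR (1.13, adjusted p = 0.0244), DESeq2 (1.14, adjusted p = 0.0181) and median-of-ratios scaling (0.96, adjusted p = 0.0323) gave a call.

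**Figure D2:**
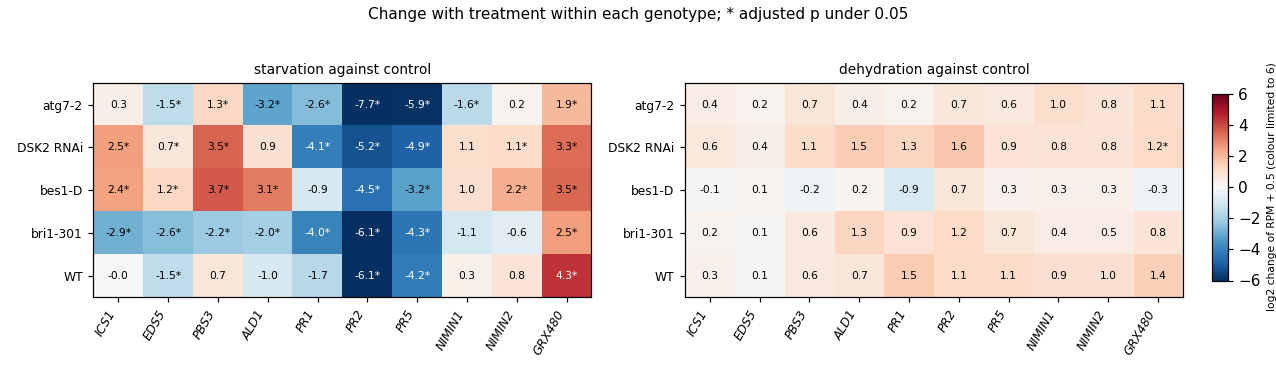
Log2 change of RPM + 0.5 for each gene (columns) and genotype (rows), for starvation against control on the left and dehydration against control on the right; stars mark adjusted p under 0.05. Under starvation 36 of 50 cells carry a star, with PR2 and PR5 negative and GRX480 positive in each row; under dehydration 1 of 50 does.

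Against starved WT leaves, starved bes1-D carried more of 7 of the 10 transcripts, with none lower. The 4 synthesis genes, both NIMIN genes and GRX480 were higher, and the PR genes were not called. Of all tested genes 9.5% were higher and 15.9% lower in that comparison, and the median difference was 2.93 for the 10 genes and -0.20 for all. NIMIN1 was 16.9 and 26.2 RPM in bes1-D and 1.04 and 0.86 RPM in WT (difference 3.89, SE 0.52, adjusted p = 1.59e-06). ICS1 was higher by 3.53 (SE 0.34, adjusted p = 3.73e-09) and EDS5 by 3.20 (SE 0.27, adjusted p = 1.6e-10) on the log2 scale. The starved libraries of bes1-D lay above those of WT for each of the 7, as they did for 21.8% of all genes. Markers of several cell types were lower in the same comparison, 2 of 3 each for guard cells, phloem and epidermis, 3 of 7 for floral organs, 1 of 2 tested for root, 2 of 6 for photosynthetic leaf and 0 of 3 for xylem, as were 2 of 3 senescence markers. Epidermal markers summed to 57.6 to 84.05 RPM in starved bes1-D and 141.6 to 144.4 RPM in starved WT, and senescence markers to 274.9 to 372 RPM in bes1-D and 511 to 687.5 RPM in WT. The slope of log2 expression on log2 transcript length was -0.20 and -0.63 in bes1-D and -0.18 and 0.00094 in WT. The part of these markers in the 7 differences was not tested, and the 7 stayed called with the length trend removed.

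Starved DSK2 RNAi exceeded WT in ICS1 (2.95, SE 0.34, adjusted p = 1.86e-06), EDS5 (2.31, SE 0.27, adjusted p = 1.86e-06) and PBS3 (3.19, SE 0.49, adjusted p = 0.000211). These were 3 of 10 genes higher and 0 lower, where 9.58% of all genes were higher and 5.58% lower. The length slopes were 0.48 and 0.65 in starved DSK2 RNAi and -0.18 and 0.00094 in starved WT. With the length trend removed the 3 stayed called. NIMIN1 (1.64, adjusted p = 0.0488) and NIMIN2 (1.38, adjusted p = 0.0399) were then called higher too. Starved atg7-2 had more ICS1 (1.85, SE 0.34, adjusted p = 4.2e-05) and PBS3 (2.33, SE 0.49, adjusted p = 0.000196) than WT, and less GRX480 (-1.71, SE 0.41, adjusted p = 0.000861) and PR5 (-1.68, SE 0.54, adjusted p = 0.00925). That mutant differed from WT throughout, with 18.1% of all genes higher and 36.1% lower. The length slopes were 0.68 and 0.76 in starved atg7-2 and -0.18 and 0.00094 in starved WT. With the length trend removed GRX480 was -0.88 and still called, and PR5 was -1.19 and not called (adjusted p = 0.0713). NIMIN2 was called higher in that fit (1.40, adjusted p = 0.0044), against 0.36 and no call in the main fit. Of the photosynthetic leaf markers 5 of 6 were lower in atg7-2, with sums of 942 to 1330 RPM in atg7-2 and 2464 to 2741 RPM in WT, and their part in these differences was not tested. PR5 was not called there without atg7-2 starvation replicate 2 (-1.42, adjusted p = 0.0856) or WT starvation replicate 1 (-1.48, adjusted p = 0.0764), nor with a pseudocount of 1 (-1.21, adjusted p = 0.0508), while edgeR and DESeq2 gave -2.61 and -2.54 and called it. DESeq2 also called NIMIN1 lower (-1.92, adjusted p = 0.0333), and EDS5 was higher without WT starvation replicate 1 (0.81, adjusted p = 0.028).

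In starved bri1-301, in contrast, called synthesis genes were below WT. ICS1 was lower (-2.48, SE 0.34, adjusted p = 3.52e-05) and PBS3 was below WT as well (-2.31, SE 0.49, adjusted p = 0.00624), where 0.509% of all genes were higher and 1.65% lower. All 10 genes had negative differences, 7 of them at an unadjusted p under 0.05, as had 20.4% of all genes in either direction. Both edgeR and DESeq2 called 5 of the 10 lower, adding EDS5 (-1.09 in both, adjusted p = 0.0237 and 0.00606), NIMIN2 (-1.76 in both, adjusted p = 0.0434 and 0.013) and NIMIN1. These added calls stand against a higher background than that of limma. Over all genes and in either direction, edgeR called 1031 and DESeq2 2215 in this comparison, against 428 by limma. Without bri1-301 starvation replicate 1, limma also called GRX480 (-1.32, adjusted p = 0.041), NIMIN2 (-1.36, adjusted p = 0.0234) and PR1 (-3.65, adjusted p = 0.00942). The PBS3 call was lost without bri1-301 starvation replicate 2 (-2.50, adjusted p = 0.0527), WT starvation replicate 1 (-2.24, adjusted p = 0.0979) or WT starvation replicate 2 (-2.39, adjusted p = 0.059). Fitted on the 4 compared libraries alone, neither gene passed (adjusted p = 0.767 for both). Scaling by median of ratios moved the share of higher genes among all calls to 55.6% in bes1-D, against 37.3% unscaled, to 50.5% in DSK2 RNAi, against 63.2%, and to 49% in atg7-2, against 33.4%.

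Whether a mutant responded to starvation differently from WT was tested directly, as the difference between the changes of the mutant and of WT. In bes1-D the response of all 4 synthesis genes was greater than in WT, by 2.42 for ICS1 (SE 0.44, adjusted p = 0.000549), 2.74 for EDS5 (SE 0.34, adjusted p = 1.85e-06), 2.93 for PBS3 (SE 0.63, adjusted p = 0.00354) and 4.06 for ALD1 (SE 0.83, adjusted p = 0.00191). This compares with 2.75% of all genes higher and 1.69% lower. In DSK2 RNAi 2 of the 10 were greater, ICS1 by 2.49 (SE 0.44, adjusted p = 0.00387) and EDS5 by 2.21 (SE 0.34, adjusted p = 0.00073), where 0.156% of all genes were higher and 0.0504% lower. PBS3 differed there by 2.76 and missed the threshold in limma (adjusted p = 0.0548). DESeq2 called it (2.77, adjusted p = 0.00153), as did limma after median-of-ratios scaling (adjusted p = 0.0188), without DSK2 RNAi control replicate 3 (3.02, adjusted p = 0.0482) or without DSK2 RNAi starvation replicate 1 (3.26, adjusted p = 0.0413). The ICS1 difference was 2.32 without WT starvation replicate 2 (adjusted p = 0.0636). With only the libraries of the compared groups in the fit, neither ICS1 nor EDS5 was called in DSK2 RNAi (adjusted p = 0.0562 for both).

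In bri1-301 the response was lower than in WT for ICS1 (-2.85, SE 0.44, adjusted p = 0.000636) and PBS3 (-2.91, SE 0.63, adjusted p = 0.0159), where 0.111% of all genes were higher and 0.782% lower. PBS3 was not called without bri1-301 control replicate 2 (-2.75, adjusted p = 0.0524), WT control replicate 3 (-2.69, adjusted p = 0.0554), WT starvation replicate 1 (-2.83, adjusted p = 0.106) or WT starvation replicate 2 (-2.98, adjusted p = 0.0639). With only the compared groups in the fit, neither ICS1 nor PBS3 was called in bri1-301 (adjusted p = 0.0738 for both). EDS5 was lower in bri1-301 by edgeR (-1.40, adjusted p = 0.0404) and DESeq2 (-1.37, adjusted p = 0.0107) and without WT starvation replicate 2 (-1.55, adjusted p = 0.0402), and GRX480 without bri1-301 starvation replicate 1 (-2.15, adjusted p = 0.0293). In atg7-2 4 genes responded lower, GRX480 (-2.39, SE 0.53, adjusted p = 0.00078), ALD1 (-2.21, SE 0.83, adjusted p = 0.0349), NIMIN1 (-1.92, SE 0.67, adjusted p = 0.0248) and PR5 (-1.77, SE 0.69, adjusted p = 0.0428). In that mutant 9.76% of all genes were higher and 28.2% lower, and median-of-ratios scaling moved the share of higher calls to 52.1%, against 25.7%. Of these 4, GRX480 was called under every alternative tried, at -2.55 to -1.63. ALD1 was called in neither edgeR (-1.86, adjusted p = 0.134) nor DESeq2 (-1.74, adjusted p = 0.127) nor after median-of-ratios scaling (-1.91, adjusted p = 0.0567). PR5 was not called after that scaling either (-1.69, adjusted p = 0.0622). NIMIN1 was -0.86 with the length trend removed (adjusted p = 0.325), and -3.28 in edgeR and -3.18 in DESeq2, where it was called. Leaving out single libraries also took away the calls of ALD1 (-2.36 to -1.77 in the 8 such fits without a call), PR5 (-2.03 to -1.29 in 7) and NIMIN1 (-1.83 to -1.51 in 4). The 4 contrasts share the WT libraries.

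**Figure D3:**
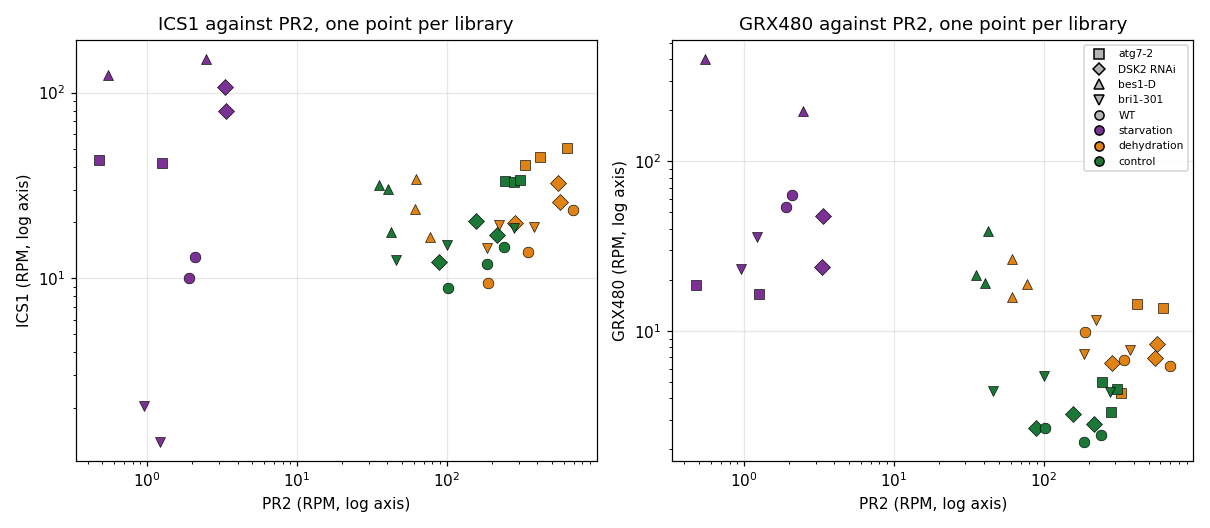
ICS1 (left) and GRX480 (right) against PR2, in RPM on log axes, one point per library; shape gives genotype and colour treatment. Starved libraries lie at 0.48 to 3.34 RPM of PR2 and spread from 1.32 to 152 RPM of ICS1, while all dehydrated and control libraries have at least 35.4 RPM of PR2.

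In control leaves 2 mutants differed from WT in these genes, with ICS1 higher in both. In atg7-2 3 synthesis genes were higher, ICS1, PBS3 and ALD1, while 0 were lower, against 2.33% of all genes higher and 2.41% lower. ICS1 was 33.6, 32.9 and 33.8 RPM in atg7-2 and 14.8, 12.0 and 8.88 RPM in WT (1.48, SE 0.28, adjusted p = 0.00213). PBS3 was 22.6, 24.5 and 25.1 RPM in atg7-2 and 7.07, 8.31 and 4.65 RPM in WT (1.81, SE 0.40). ALD1 was 14.5, 18.3 and 21.3 RPM in atg7-2 and 6.01, 2.46 and 1.27 RPM in WT (2.50, SE 0.52). The groups did not overlap for any of the 3. Libraries of atg7-2 also lay wholly above those of WT for EDS5, PR2, NIMIN2 and GRX480. Over all genes, atg7-2 lay apart and higher in 14.9%. EDS5, the exporter, was 12.9 ± 1.15 RPM in atg7-2 and 10.2 ± 0.518 RPM in WT (SD, n = 3) and was not called. The PR genes, the NIMIN genes and GRX480 were not called either, with differences of 0.09 for PR5 to 1.50 for PR1. That of PR1 rested on single WT libraries, at 0.35 without WT control replicate 3 and 2.32 without WT control replicate 1. The 3 senescence markers summed to 197 to 418 RPM in atg7-2 and 79.7 to 104 RPM in WT controls, and their part in these differences was not tested.

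In bes1-D control leaves ICS1, the NIMIN genes and GRX480 were higher and PR2 and PR5 lower than in WT. Of the 10 genes 4 were higher and 2 lower, against 6.82% and 8.86% of all genes. Median-of-ratios scaling moved the share of higher genes among all calls to 57.8%, against 43.5%. NIMIN1 was 5.34, 17.3 and 12.5 RPM in bes1-D and 0.89, 0.17 and 1.17 RPM in WT (3.25, SE 0.43, adjusted p = 1.95e-06). NIMIN2 was 4.89, 9.60 and 8.60 RPM in bes1-D and 1.37, 2.39 and 1.58 RPM in WT (1.82, SE 0.30, adjusted p = 7.85e-05). PR2 was 40.6, 35.4 and 42.2 RPM in bes1-D and 239, 186 and 101 RPM in WT (-2.06, SE 0.48, adjusted p = 0.00332). No bes1-D library overlapped those of WT for these 3 genes, where 11.8% of all genes lay apart and higher and 18.9% lower. GRX480, at 26.5 ± 10.7 RPM in bes1-D and 2.45 ± 0.234 RPM in WT, was the other response gene that was higher (SD, n = 3). ICS1 was higher by 1.11 (SE 0.28, adjusted p = 0.00588) and by 0.93 without WT control replicate 3 (adjusted p = 0.0523). EDS5 was higher by 0.45 and not called in limma (adjusted p = 0.154), but was called by edgeR (0.68, adjusted p = 0.0179), DESeq2 (0.69, adjusted p = 0.0044) and after median-of-ratios scaling (0.66, adjusted p = 0.0173).

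The PR5 difference between bes1-D and WT controls was -1.35 (SE 0.44, adjusted p = 0.0331), with 14.9, 19.0 and 16.4 RPM in bes1-D and 66.4, 55.6 and 22.2 RPM in WT. It was not called without bes1-D control replicate 1 (-1.27, adjusted p = 0.0876) or 3 (-1.34, adjusted p = 0.102), WT control replicate 1 (-1.05, adjusted p = 0.166) or WT control replicate 2 (-1.18, adjusted p = 0.107), nor after median-of-ratios scaling (-1.14, adjusted p = 0.085) or in edgeR (-1.30, adjusted p = 0.0536). In DSK2 RNAi and bri1-301 controls 0 of the 10 genes were called by limma, edgeR or DESeq2, and 0 and 1 had an unadjusted p under 0.05, as had 3.48% and 9.44% of all genes. The background of calls there was 0.0404% higher and 0.0252% lower in DSK2 RNAi and 0.373% and 0.59% in bri1-301, where the share of higher calls moved to 24.4% with scaling, against 38.7%.

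In dehydrated leaves the same 3 synthesis genes were higher in atg7-2 than in WT, and bes1-D again had more NIMIN1, NIMIN2 and GRX480 and less PR2 and PR5. In atg7-2, ICS1 (1.61, SE 0.28, adjusted p = 0.000694), PBS3 (1.95, SE 0.40, adjusted p = 0.00294) and ALD1 (2.17, SE 0.52, adjusted p = 0.00923) were higher, against 6.24% of all genes higher and 3.18% lower. With only the 6 libraries of both groups in the fit, none of the 3 was called (adjusted p = 0.0781, 0.0887 and 0.0749). ALD1 was also lost without atg7-2 dehydration replicate 1 (1.96, adjusted p = 0.0565) or WT dehydration replicate 3 (1.95, adjusted p = 0.059). In bes1-D 3 were higher and 2 lower, against 4.97% and 4.34% of all genes. NIMIN1 was 6.35, 22.4 and 15.3 RPM in dehydrated bes1-D and 1.20, 2.04 and 2.08 RPM in WT (2.60, SE 0.43, adjusted p = 8e-05). PR2 was 61.3, 61.6 and 77.2 RPM in bes1-D and 694, 345 and 187 RPM in WT (-2.41, SE 0.48, adjusted p = 0.000944). The groups were apart for both, where 12.3% of all genes lay apart and higher and 10.8% lower. PR5 was lower too (-2.17, adjusted p = 0.00102).

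GRX480 (1.37, adjusted p = 0.00674) and NIMIN2 (1.14, adjusted p = 0.013) were also higher in dehydrated bes1-D. Without bes1-D dehydration replicate 2 they were 1.16 (adjusted p = 0.0526) and 0.86 (adjusted p = 0.114), and NIMIN2 was 0.99 (adjusted p = 0.0788) without WT dehydration replicate 1. NIMIN2 was not called with only the compared libraries (adjusted p = 0.107). ALD1 was -1.58 (adjusted p = 0.053), and edgeR (-1.98, adjusted p = 0.0417) and DESeq2 (-1.96, adjusted p = 0.0126) called it. DESeq2 also called PR1 (-2.22, adjusted p = 0.0323) and EDS5 (0.55, adjusted p = 0.0402). Without WT dehydration replicate 1 ICS1 was called higher (1.03, adjusted p = 0.0225), and without replicate 3 PBS3 (-1.44, adjusted p = 0.0159), PR1 (-2.56, adjusted p = 0.0444) and ALD1 (-1.80, adjusted p = 0.0496) were called lower. PBS3 was also called without bes1-D dehydration replicate 2 (-1.38, adjusted p = 0.0299). In a fit of the 6 compared libraries with the replicate number as a block, ALD1 (-1.58), PBS3 (-0.88) and PR1 (-2.16) were lower and EDS5 (0.52) and ICS1 (0.70) higher as well, with adjusted p from 9.1e-05 to 0.0475. Same-number correlations were 0.56, 0.56 and 0.81, but bes1-D replicates 1 and 2 correlated as closely with a WT library of another number (0.56 and 0.55). Replicate 3 of both groups stands apart by length slope. The share of all genes called in that fit is not given here. In dehydrated DSK2 RNAi and bri1-301 0 of 10 genes were called by limma, edgeR or DESeq2, and 2 and 0 had an unadjusted p under 0.05, as had 33.6% and 20.3% of all genes. Without WT dehydration replicate 1 limma called ICS1 higher in DSK2 RNAi (1.12, adjusted p = 0.0459). Of all genes 0.222% and 0.0605% were higher and lower in DSK2 RNAi, and 0.489% and 0.626% in bri1-301. Scaling moved the share of higher calls to 50.3% in atg7-2, against 66.3%, to 40.4% in DSK2 RNAi, against 78.6%, and to 32.9% in bri1-301, against 43.9%.

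**Figure D4:**
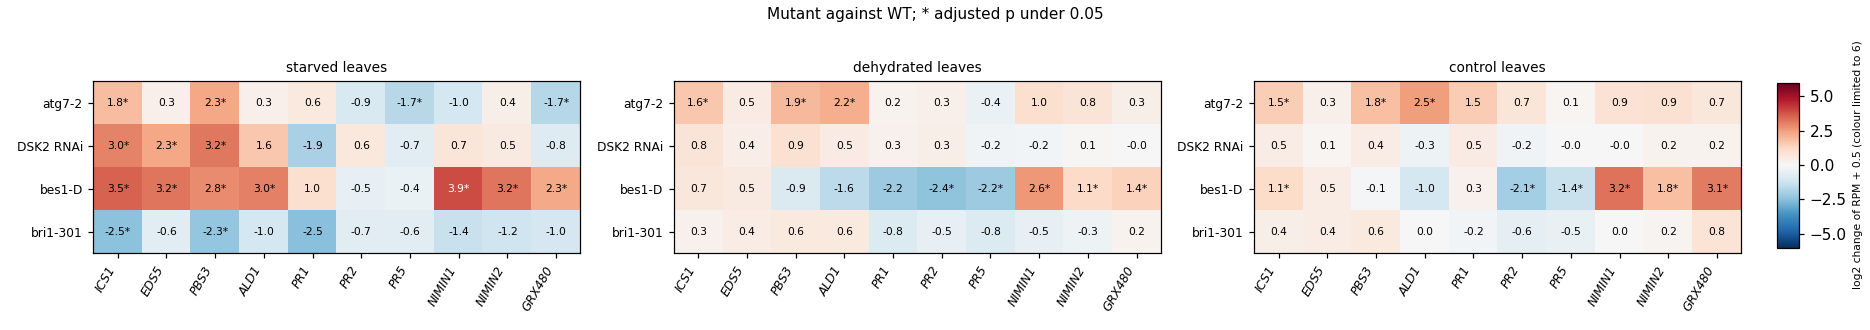
Log2 difference of RPM + 0.5 between each mutant and WT (rows) for each gene (columns), in starved, dehydrated and control leaves; stars mark adjusted p under 0.05. NIMIN1, NIMIN2 and GRX480 carry a star in bes1-D in all 3 treatments, as do ICS1 and PBS3 in atg7-2.

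The 4 hours of dehydration gave few calls among these genes, though their median change was not small in every genotype. It was 0.63 in atg7-2, 0.998 in DSK2 RNAi, 0.16 in bes1-D, 0.66 in bri1-301 and 0.957 in WT. The medians of all genes were 0.007, 0.09, 0.06, -0.07 and -0.12 in the same order. GRX480 in DSK2 RNAi was the 1 call among 50 pairs, with 6.50, 8.33 and 6.92 RPM in dehydrated leaves and 2.66, 2.81 and 3.23 RPM in controls (1.19, SE 0.33, adjusted p = 0.0418). The groups were apart, as they were with dehydration higher for 19% of all genes. The call was lost in 11 of 16 alternatives, including the removal of any 1 of the 6 libraries (log2 changes of 1.09 to 1.26, adjusted p = 0.0576 to 0.183). With only the compared libraries, PBS3 (1.11, adjusted p = 0.016), ALD1 (1.505, adjusted p = 0.0399) and NIMIN2 (0.83, adjusted p = 0.0477) were also called higher in DSK2 RNAi. PBS3 was called there without the libraries that stand apart as well (adjusted p = 0.0296). The shares of all genes called in those 2 fits are not given here. In the other genotypes limma called 0. The number at an unadjusted p under 0.05 was 3 in atg7-2, 0 in bes1-D, 3 in bri1-301 and 6 in WT, where 6.35%, 8.18%, 11.6% and 12.8% of all genes had one, and edgeR called 0 in each. DESeq2 called 1, GRX480 in WT, where it called 510 of all genes against 59 by limma. Single libraries decided further calls. Without atg7-2 dehydration replicate 3, GRX480 (1.61, adjusted p = 0.0066) and NIMIN2 (1.16, adjusted p = 0.048) were called in atg7-2, and without bri1-301 control replicate 3, ALD1 (2.03, adjusted p = 0.0256) and PR2 (1.88, adjusted p = 0.027) were called in bri1-301. The background of calls was small as well: 0% of all genes were higher and 0% lower in atg7-2, 2.25% and 1.57% in DSK2 RNAi, 0.399% and 0.777% in bes1-D, 0.434% and 0.363% in bri1-301, and 0.116% and 0.182% in WT. Scaling moved the share of higher calls to 41.5% in DSK2 RNAi, against 59%, to 13.4% in bes1-D, against 33.9%, and to 66.2% in bri1-301, against 54.4%.

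Most changes with dehydration were positive without passing the test, 46 of 50, and the 4 negative ones were all in bes1-D. The pairs are not independent, since genes such as PR2 and PR5 moved together. Whether 46 exceeds the share of positive changes over all genes was not tested. PR2 had changes of 0.68 to 1.63 in the 5 genotypes. In DSK2 RNAi it was 284, 569 and 551 RPM in dehydrated leaves and 88.3, 217 and 157 RPM in controls. In WT it was 694, 345 and 187 RPM in dehydrated leaves and 239, 186 and 101 RPM in controls. The libraries were apart in DSK2 RNAi and overlapped in WT. The change in DSK2 RNAi (1.63, adjusted p = 0.0534) was called with only the compared libraries (adjusted p = 0.0139) and without DSK2 RNAi dehydration replicate 1 (1.95, adjusted p = 0.0491), and that in WT was 0.62 without WT dehydration replicate 1. GRX480 in WT was 6.19, 6.74 and 9.83 RPM in dehydrated leaves and 2.44, 2.22 and 2.68 RPM in controls, groups that did not overlap (as for 5% of all genes) though limma did not call the change of 1.43 (adjusted p = 0.0507). DESeq2 called it (1.79, adjusted p = 0.00892), as did limma with a pseudocount of 0.1, with the length trend removed or without WT control replicate 3 (1.30 to 1.57, adjusted p = 0.0371 to 0.0462). PR1 in bes1-D was 46.8, 59.9 and 36.9 RPM in dehydrated leaves and 72.5, 89.4 and 106 RPM in controls (-0.90, not called). Its change in WT was 1.51, also not called, and 0.36 without WT control replicate 3. No difference between a mutant and WT in response to dehydration was called in limma or edgeR, and DESeq2 called 1, GRX480 in bes1-D (-2.39, adjusted p = 0.0281). At an unadjusted p under 0.05 there were 2, both in bes1-D, where 4.25% of all genes had one, against 1.81% in atg7-2, 2.68% in DSK2 RNAi and 1% in bri1-301. Of all genes limma called 0.0656% lower and 0% higher in that bes1-D contrast. These were 13 genes, against 97 called there by DESeq2.

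The wider pathway was read from 36 other genes of salicylic acid synthesis and its regulators, turnover and perception, of which 35 were tested. Under starvation 9 rose and 14 fell in atg7-2, 13 and 10 in DSK2 RNAi, 14 and 7 in bes1-D, 8 and 15 in bri1-301, and 12 and 12 in WT. As shares of the 35 these were 25.7% and 40% in atg7-2, 37.1% and 28.6% in DSK2 RNAi, 40% and 20% in bes1-D, 22.9% and 42.9% in bri1-301, and 34.3% and 34.3% in WT. The shares of all genes given above were 22.3% and 47.2%, 24.9% and 36%, 26.1% and 39.9%, 21.8% and 32.3%, and 24.7% and 35.7% in the same order, so that several of these counts lay near the background. Of 6 genes of turnover 5 rose in each genotype but bri1-301, where 4 did, and 1 fell in each genotype but bes1-D, where 0 did. BSMT1, a methyltransferase that makes the volatile methyl salicylate, was 103 ± 42 RPM in starved and 1.08 ± 0.30 RPM in control WT leaves (5.99, adjusted p = 9.1e-11). UGT74F2, a glucosyltransferase that stores the hormone as a sugar conjugate, was 702 ± 140 RPM in starved and 66.1 ± 5.6 RPM in control WT leaves (3.39, adjusted p = 2.2e-09; SD, n = 2 and 3). PAL1, of the phenylalanine route, fell in WT (-2.85, adjusted p = 2.9e-06). UGT74F2 (3.28) and UGT76B1 (3.17), another glucosyltransferase, and the transcription factor TGA1 (3.10) were the largest changes in atg7-2.

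FMO1, which makes N-hydroxypipecolic acid, rose by 4.41 on the log2 scale in bes1-D, where BSMT1 (3.83) and UGT76B1 (3.61) rose as well. In DSK2 RNAi BSMT1 (5.46), UGT76B1 (4.27) and UGT74F2 (3.46) rose most. In bri1-301 BSMT1 rose by 4.42 on the log2 scale, and the transcription factor WRKY54 (-3.76) and the salicylic acid hydroxylase DLO1 (-2.83) fell. The list of synthesis and its regulators, of 15 genes, had 1 higher and 8 lower in atg7-2, 4 and 5 in DSK2 RNAi, 5 and 5 in bes1-D, 0 and 9 in bri1-301, and 2 and 8 in WT. The list of perception and transcription, of 14 genes, had 3 and 5, 4 and 4, 4 and 2, 4 and 5, and 5 and 3 in the same order. Whether these lists differ from each other was not tested. In the test of response against WT, FMO1 was greater in bes1-D (2.50, adjusted p = 0.021), lower in bri1-301 (-3.00, adjusted p = 0.018) and lower in atg7-2 (-2.41, adjusted p = 0.0048). PAD4, a lipase-like regulator of the pathway, was greater in bes1-D (1.91, adjusted p = 0.0051). In atg7-2 the largest of 6 lower responses were BSMT1 (-3.39) and SARD4 (-2.46), an enzyme of pipecolic acid synthesis. Those 6 were 17.1% of the 35, below the 28.2% of all genes called lower in that contrast.

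Against WT, atg7-2 had 6 of the 35 higher and 0 lower in controls, 15 and 0 in dehydrated leaves and 7 and 3 in starved leaves. These were 17.1% and 0%, 42.9% and 0%, and 20% and 8.57% of the 35. Of all genes 2.33% and 2.41%, 6.24% and 3.18%, and 18.1% and 36.1% were higher and lower in the same order. The count of higher genes in starved atg7-2 thus lay near the background, and that of lower genes under it. FMO1 (1.80), CBP60g (1.50), a transcription factor that activates ICS1, and PAD4 (1.40) led in controls. EDS1B (1.89), CBP60g (1.76) and SARD1 (1.72), its relative, led in dehydrated leaves. In starved atg7-2 BSMT1 was lower (-3.75) and DLO1 (2.18) and the regulator EDS1 (2.02) were higher. CBP60g was 71.8 ± 4.8 RPM in atg7-2 and 25.5 ± 5.8 RPM in WT controls (SD, n = 3). In bes1-D 4 were higher and 3 lower in controls, led by the transcription factor WRKY38 (1.85), CBP60g (1.79) and FMO1 (-1.33). In dehydrated bes1-D 2 were higher and 3 lower, with WRKY38 (1.88), FMO1 (-1.81) and BSMT1 (-1.77) the largest. In starved bes1-D 9 were higher and 6 lower, with BSMT1 (-3.53), PAD4 (2.67) and WRKY70 (2.39) the largest. As shares of the 35 the bes1-D counts were 11.4% and 8.57% in controls, 5.71% and 8.57% dehydrated and 25.7% and 17.1% starved. Of all genes 6.82% and 8.86%, 4.97% and 4.34%, and 9.5% and 15.9% were higher and lower in the same order. Several of these counts lay near the background. Starved DSK2 RNAi had 9 higher, led by WRKY70 (1.86), CBP60g (1.84) and EDS1 (1.79), and starved bri1-301 had 1 lower, FMO1 (-3.20). Those 9 were 25.7% of the 35, where 9.58% of all genes were higher. The 1 in bri1-301 was 2.86%, where 1.65% of all genes were lower. Under dehydration MES9, a methyl salicylate esterase, rose in DSK2 RNAi (1.55), bri1-301 (1.22) and WT (1.26), and BSMT1 (2.09) and WRKY38 (1.21) rose in DSK2 RNAi.

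The authors' deposited table also marks genes in 14 comparisons, by a test and threshold not stated in the labels or headers. In the authors' deposited table EDS5, PBS3, ALD1, PR2, PR5 and GRX480 were marked yes for starvation against control in each of the 5 genotypes, which includes PBS3 and ALD1 in WT, where limma called neither. In the authors' deposited table, starvation marked 10 of the 10 genes in atg7-2, 10 in DSK2 RNAi, 9 in bes1-D, 9 in bri1-301 and 7 in WT, where 57.9%, 51.3%, 49.7%, 34.2% and 50.5% of all genes were marked. In the authors' deposited table, 5 of the 10 genes were marked for atg7-2 against WT, 8 for bes1-D, 0 for DSK2 RNAi and 1 for bri1-301, where 9%, 15.7%, 0.33% and 2.1% of all genes were marked. In the authors' deposited table, 6 of the 10 were marked for dehydration in DSK2 RNAi, where 12.4% of all genes were, 2 each in bri1-301 (5.7%) and WT (1.93%), and 1 each in atg7-2 (0.386%) and bes1-D (1.88%).

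Across the 15 group means of log2(RPM + 0.5), which share genotypes and treatments, some pairs of the 10 genes ran together. Pearson's r was 0.99 between PR2 and PR5, 0.84 between PR1 and each of these, 0.89 between ICS1 and PBS3, and 0.89 between NIMIN1 and NIMIN2. Other pairs were close as well, with 0.79 for ICS1 and NIMIN2, 0.73 for ICS1 and EDS5, and 0.70 for EDS5 and NIMIN1. The synthesis genes EDS5 and PBS3 had 0.47, so the list did not part into clean sets. GRX480 ran against PR2 (r = -0.77) over groups that include the starved ones. Under dehydration both had positive changes, mostly not called, in every genotype but bes1-D. These are descriptions over 15 points and carry no test. Among 7422 other genes with a symbol and enough signal, the pattern most like ICS1 was that of MC1 (r = 0.93), a metacaspase, followed by PUB54 and WRKY46. EDS5 was most like WRKY70 (r = 0.95), CRK13 and MYB50, PBS3 most like KOR2 (r = 0.96), PUB54 and FMO1, and ALD1 most like YLS5 (r = 0.88), CYP71A13 and PP2-B10. PR1 was most like CP12-2 (r = 0.90), RLP43 and GSTU18. PR2 was most like BAM2 (AT4G00490; r = 0.99), annotated as a beta-amylase, VSP1, a vegetative storage protein, and AK3, and PR5 most like VSP1 (r = 0.98), CSLG3 and LBD11. NIMIN1 was most like AGP5 (r = 0.99), SDR3 and NUDT7, and NIMIN2 most like ARFB1B (r = 0.92), BI1 and AGP5. GRX480 was most like RALFL18 (r = 0.97), AGP1 and MSS3.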

How the data were processed

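RNA-seq libraries of 40 leaf samples were analysed, grouped by the labels, which describe total RNA read from single ends of 50 bases. Per the file headers, the authors deposited RPM. It is treated as a signal because the deposited columns sum to 985308 to 1023136 and not to one total. With a tolerance of 0.01 read, 100% of the deposited values came out as whole reads, and these recovered counts fed edgeR and DESeq2. TAIR10, GSNAP and DESeq2 appear in the submitters' processing notes without version or role. No source used here says how strand or reads shared between similar genes were treated. The table has 33366 lines, and the 4591 without an identifier stayed out.

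Genes reaching 1 RPM in 2 or more libraries were tested as log2(RPM + 0.5) with limma 3.58.1 in R 4.3.3, with a mean-variance trend, fitted to all groups together. Alternatives were pseudocounts of 0.1 and 1, no filter, only the compared groups, median-of-ratios scaling, the replicate number as a block, edgeR 4.0.16, DESeq2 1.42.0 and leaving out each library or those more than 3 median absolute deviations from their group by length slope. A length correction and blocked fits of single comparisons were added after seeing the data. The code was first tested on simulated data. Replicates of a group differed by at least 14.6 in chi-square per degree of freedom, more than sampling noise. Replicate numbers paired dehydration and control libraries in some genotypes only (same-number correlations of -0.37 to 0.5, above 0.1 in 10 of 15 pairs), so they were not used as a block in the tests reported first.

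The 10 genes and the wider list were chosen with earlier results of these data known. All 10 are described. Of the wider list up to 3 called genes per comparison are named by size of change, and for each of the 10 the 3 genes with the most similar pattern were taken. Symbols, lengths and promoters came from TAIR10.1, with 28009 of 28775 identifiers matched. The promoter of 1 of the 10 genes is not reported here.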

Additional observations from a re-analysis of the deposited data

Results flagged for a closer look

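The response to starvation differed between a mutant and WT in 12 tests of the difference itself (limma, adjusted p under 0.05). The sizes below are differences between changes on the log2 scale, mutant minus WT. In bes1-D, ICS1 (2.42), EDS5 (2.74), PBS3 (2.93) and ALD1 (4.06) responded more strongly. Both starved bes1-D libraries lay above all bes1-D controls for the 4 genes, whereas in WT the starved libraries lay within the controls for ICS1, below them for EDS5 and above them for PBS3. In DSK2 RNAi the difference was 2.49 for ICS1 and 2.21 for EDS5. In bri1-301 it was -2.85 for ICS1 and -2.91 for PBS3. These rest on the 2 starved libraries that stand apart by length slope, which were flagged together because they differ from each other. In atg7-2 it was -2.39 for GRX480, -2.21 for ALD1, -1.92 for NIMIN1 and -1.77 for PR5, in a comparison that called 9.76% of all tested genes higher and 28.2% lower.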

How the results depend on the processing

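Of 82 calls 60 held under each alternative tried, and no call reversed. Counts of calls over the 50 pairs for starvation were 35 to 39 when single libraries were left out, 42 with edgeR or DESeq2, and 38 with the replicate block, against 36. For dehydration, with 1 call, the count was 0 with edgeR, median-of-ratios scaling or no filter, 2 with a pseudocount of 0.1, 5 with only the compared groups, 3 with the length trend removed or without the libraries that stand apart, and 0 to 5 when single libraries were left out. The 5 with only the compared groups were all in DSK2 RNAi. The difference between mutants and WT in response to dehydration gave 1 call with DESeq2 and 0 otherwise. For mutants against WT in dehydrated leaves, the count was 5 with only the compared groups, against 8. It was 9 with edgeR, 11 with DESeq2 and 12 with the length trend removed. Without the libraries that stand apart, the starvation responses of 3 mutants against WT gave 8 calls, against 10 for the same 3, and bri1-301 starvation had no value.

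The replicate block gave 1 call for dehydration, 9 and 8 for mutants against WT in control and dehydrated leaves, 16 in starved leaves and 13 for the starvation responses, against 1, 9, 8, 16 and 12. With it NIMIN1 rose under starvation in DSK2 RNAi and bes1-D, and PBS3 responded more in DSK2 RNAi than in WT (adjusted p = 0.0186, 0.026 and 0.0283), but the numbers pair no starved libraries by the labels. As an addition after seeing the data, a block within the 4 comparisons whose same-number libraries all correlated above 0.1 was fitted. It added the calls given for dehydrated bes1-D and GRX480 under dehydration in bri1-301 (0.82, adjusted p = 0.0417). With 2 starved libraries a group, SEs for starvation lean on the spread in the other groups. Depth limits NIMIN1 in starved atg7-2 and bri1-301, where values approach 3 reads.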
